A study of Homo sapiens with 3 samples.

Results

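The genes described here are 36 components of the unfolded protein response and the integrated stress response, chosen by name: endoplasmic reticulum (ER) chaperones and folding enzymes, ER-associated degradation factors, stress sensors and the genes they control. Every probe set whose platform annotation gave exactly 1 of these symbols was taken, which gave 109 of 44988 probe sets with 1 symbol and 36 of 18132 genes. The cells were KYSE180, an established line from a human squamous carcinoma of the oesophagus, and 3 expression arrays were used. One array carried RNA of control cells. Another carried RNA of cells transfected with a vector for the long non-coding RNA HOTAIR (LZRS_HOTAIR, delivered with Polyfect). The third carried RNA of cells given a mixture of siRNAs against HOTAIR (100 pmol, delivered with Lipofectamine2000), and RNA was taken 48 h after transfection. The label of the control sample does not say whether those cells were mock transfected. The source name of the siRNA sample refers to a HOTAIR cell line, whereas its title and cell line field give KYSE180. The arms therefore differed in reagent and in kind of nucleic acid as well as in HOTAIR. Each group had 1 array, so differences were not checked by replicates and were not tested.

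When unfolded proteins accumulate in the ER, the sensors IRE1 (gene ERN1), ATF6 and PERK (gene EIF2AK3) respond. IRE1, acting through the transcription factor XBP1, and ATF6, itself a transcription factor, raise the supply of chaperones and degradation factors. PERK phosphorylates the translation initiation factor eIF2, as does GCN2 (gene EIF2AK4) when amino acids run short. General translation then slows while ATF4 is translated and switches on genes of amino acid supply, and a phosphatase with PPP1R15A or PPP1R15B as its targeting subunit reverses the signal. Array signals report RNA abundance, so neither XBP1 splicing nor eIF2 phosphorylation was measured.

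The control array stood apart from the others. Over the 10917 genes above a signal filter, log2 differences spread with an SD of 0.92 between vector and control, 0.84 between siRNA and control and 0.45 between the arms. The filter kept a gene whose best probe set had a mean log2 signal of at least 5.28, the median of all probe sets. Without replicate arrays, only the disagreement between probe sets of one gene could be measured. Its pooled SD over 5982 genes was 0.36 between vector and control, 0.39 between siRNA and control and 0.21 between the arms. This spread does not include variation between cultures or arrays. The median gene differed by -0.18 in vector minus control and -0.17 in siRNA minus control. After cyclic loess these medians were -0.06 and -0.01, and after repeated quantile normalization -0.29 and -0.24, so member differences of this size have no fixed direction. The annotation named 0 probe sets for HOTAIR, so the manipulation itself was not checked. Of 10 squamous markers 7 were measured and all 7 lay above the filter, whereas 0 of 6 fibroblast and 0 of 4 endothelial markers did, and of 5 leukocyte markers measured only CD68 did. The log2 of the summed marker signals was 14.69 in control cells, 14.07 with the vector and 14.49 with the siRNAs for squamous genes and 7.80, 7.09 and 6.71 for leukocyte genes, and the part of this in the results was not tested. In whole-culture RNA, fewer cells of a type and less RNA per cell cannot be told apart.

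At 2-fold, the share of stress response genes away from control was close to that of all genes. Of the 36 members, 34 passed the filter, and the exceptions were the sensor gene ERN1 and the transcription factor gene DDIT3. At least 2-fold (1 on the log2 scale) higher in vector than in control cells were 4 of 34, against 15.2% of all genes above the filter, and 0 were lower, against 2.05%. The 4 were SLC7A11, DNAJB9, DNAJC3 and XPOT. In siRNA minus control the count was 5 of 34, these 4 and HSP90B1, against 14.9% of all genes, and 0 were lower, against 1.85%. Between the arms 0 of 34 were 2-fold apart, against 1.73% of all genes higher and 1.85% lower in vector cells. Both comparisons with control use the same control array, so the values below stand side by side and are not independent. The share of genes past 2-fold that were higher was 88.1% in vector minus control and 88.9% in siRNA minus control, or 73.6% and 78.3% after repeated quantile normalization. At 1.5-fold, 9 of 34 members were higher and 1 lower in vector minus control, against 22.9% and 19.4% of all genes, and 8 and 5 in siRNA minus control, against 22.8% and 18%. At 3-fold only SLC7A11 was higher, against 8.15% in vector and 7.25% in siRNA minus control, and 0 were lower, against 0.293% and 0.0458%. No member was lower by 2-fold under the scalings tried.

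**Figure D1:**
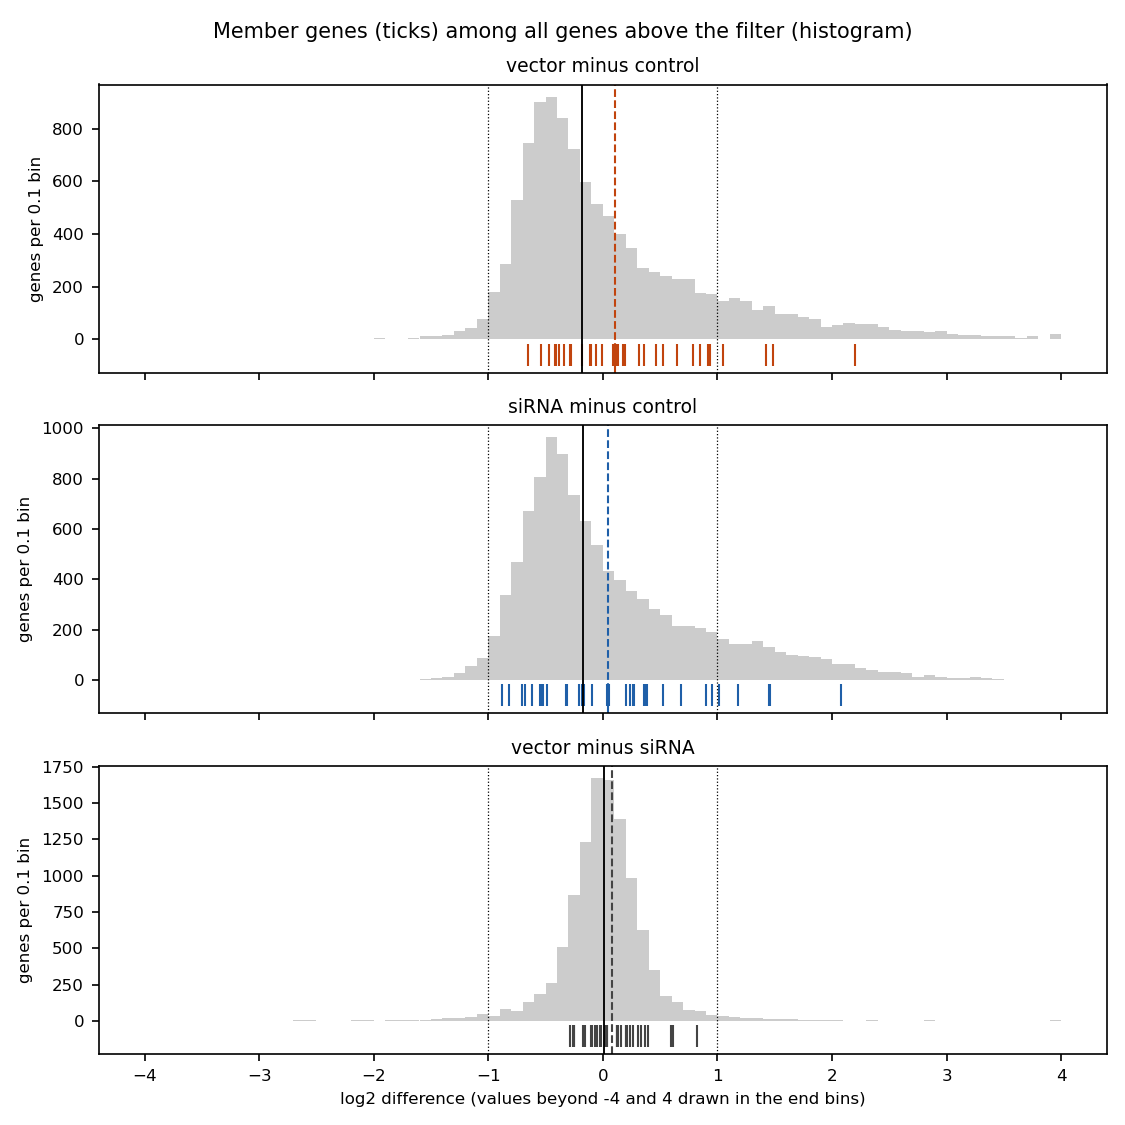
Histogram of log2 differences of the 10917 genes above the filter (grey, genes per bin of 0.1) with the 34 member genes as ticks, for each pair of arrays. The solid line is the median of all genes, the dashed line that of the members, and the dotted lines mark 2-fold. The members lie within the body of each distribution, between -0.65 and 2.20 in vector minus control, -0.88 and 2.08 in siRNA minus control, and -0.29 and 0.82 in vector minus siRNA.

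The median member differed by 0.11 in vector minus control, where 20 members were above 0 and 14 below. In siRNA minus control the median was 0.04, with 18 above 0 and 16 below, and in vector minus siRNA it was 0.08, with 21 above and 13 below. Over all genes above the filter 40.8%, 41.2% and 52.0% were above 0 in the same order. Both medians against control turned negative with the mean over probe sets, at -0.01 and -0.06. In siRNA minus control it was also -0.06 without probe sets whose names end in _x_at or _s_at.

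Among the ER chaperones, HSP90B1 and a pair of co-chaperones were higher than control in both arms, while HSPA5 (BiP), the central chaperone that also restrains the sensors, was close to control. HSPA5 had a log2 signal of 12.56 in control, 12.67 with the vector and 12.77 with the siRNAs on its representative probe set, taken as the one with the highest mean. Its 6 probe sets ran from -0.25 to 0.11 in vector minus control and from -0.24 to 0.21 in siRNA minus control, on either side of 0. HSP90B1 (GRP94), which folds secreted and membrane proteins such as integrins and Toll-like receptors, had 12.00 in control cells, 12.93 with the vector and 13.18 with the siRNAs. Control was thus the lowest array, by 0.93 (1.91-fold) against vector and 1.18 (2.27-fold) against siRNA cells. All 7 HSP90B1 probe sets had this order, with differences from 0.89 to 1.32 in vector minus control and from 1.12 to 1.57 in siRNA minus control. The vector signal was below the siRNA signal on each of the 7 as well, at -0.16 to -0.40. HSP90B1 passed 2-fold in vector cells with the mean over probe sets (1.11), after cyclic loess (1.02), after centring (1.12) and without the _x_at and _s_at probe sets (1.15).

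DNAJC3, a co-chaperone of HSPA5 that also inhibits PERK, had 7.69 in control cells, 9.11 with the vector and 9.13 with the siRNAs. Its 3 probe sets differed from control by at least 1.32 in vector and by 0.89 to 1.45 in siRNA cells, and the ranges of the arms overlapped. DNAJB9, a J-domain protein that recruits HSPA5 to IRE1, had 6.01, 7.49 and 7.47 in the same order, a difference of 1.48 and 1.46. The other 2 DNAJB9 probe sets lay below the filter, at 0.17 and 0.81 in vector and 0.53 and 0.58 in siRNA minus control, so the size for this gene rests on 1 probe set. DNAJC3 exceeded 90.2% and DNAJB9 90.8% of all genes in vector minus control.

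On their representative probe sets the other chaperones were within 1.5-fold of control (0.58 on the log2 scale) in vector cells. DNAJB11, a J-domain partner of HSPA5, had 11.59, 11.76 and 11.64. SDF2L1, which works with DNAJB11, ran the other way, at 10.47 in control cells, 9.93 with the vector and 9.79 with the siRNAs, a difference of -0.54 and -0.68. HYOU1, the nucleotide exchange factor of HSPA5, had 8.30, 7.89 and 7.77, and its 5 probe sets above the filter were lower than control throughout, at -0.41 to -0.62 in vector and -0.45 to -0.89 in siRNA cells. The lectin chaperones of glycoprotein folding went apart. CALR, the soluble one, had 7.64, 7.17 and 7.15, whereas CANX, its membrane counterpart, had 12.09, 12.44 and 12.46, although 3 of its 9 probe sets were below 0 in siRNA minus control, at -0.08 to -0.31.

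Disulfide isomerases, which form and rearrange disulfide bonds, were close to control in both arms. PDIA3 had 11.55 in control cells, 11.65 with the vector and 11.91 with the siRNAs, PDIA4 had 11.45, 11.55 and 11.72, and PDIA6 had 11.29, 11.42 and 11.53. On these representative probe sets siRNA cells were highest in each, yet the differences from control, 0.23 to 0.36, were within the spread between probe sets of 0.39. Another PDIA4 probe set was highest in control, at 7.57 against 7.20 with the vector and 7.31 with the siRNAs. All 8 probe sets of these genes were lower in vector than in siRNA cells, at -0.09 to -0.26. CRELD2 and MANF, small ER proteins released under stress, had 10.42, 10.14 and 9.90 and 11.18, 10.77 and 11.02, so control had the highest signal for each. The MANF difference in siRNA minus control, -0.17 on its only probe set, was that of the median gene, so no direction is read for it there.

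The ER stress response element (ERSE), the paired site bound by NF-Y together with ATF6 or XBP1, was searched in the promoters because it marks many chaperone genes. Promoter windows were RefSeq's on GRCh38.p14, 300 bases each, of which 250 lie upstream of the annotated start. The motif was CCAAT, then 9 bases of any kind, then CCACG, on either strand. Of 34 members with a window 7 held it, namely HSPA5, HSP90B1, PDIA6, CALR, CANX, CRELD2 and XBP1, against 25 of 27305 genes with a window (0.0916%). The members were chosen as genes of this response, so their share describes the choice and is not a result of the arrays. The upstream matches of 6 of these genes are shown with their flanks, in the gene's 5′ to 3′ direction and with the motif, or its reverse complement, in capitals.
HSPA5: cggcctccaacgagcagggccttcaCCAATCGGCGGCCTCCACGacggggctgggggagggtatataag
HSP90B1 distal: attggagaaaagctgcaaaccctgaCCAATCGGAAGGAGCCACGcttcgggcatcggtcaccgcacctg
HSP90B1 proximal: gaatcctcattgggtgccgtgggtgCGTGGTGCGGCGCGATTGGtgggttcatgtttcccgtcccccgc
PDIA6: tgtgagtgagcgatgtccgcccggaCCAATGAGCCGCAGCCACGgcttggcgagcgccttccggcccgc
CALR: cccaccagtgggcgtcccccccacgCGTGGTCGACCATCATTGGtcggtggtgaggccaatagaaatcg
CRELD2: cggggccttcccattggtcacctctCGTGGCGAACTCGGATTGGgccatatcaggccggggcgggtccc
XBP1: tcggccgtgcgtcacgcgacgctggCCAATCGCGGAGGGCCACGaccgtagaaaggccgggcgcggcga

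These stretches lie at chr9:125241366-125241434 (minus strand) for HSPA5, chr12:103930191-103930259 and chr12:103930296-103930364 (plus) for HSP90B1, and chr2:10812828-10812896 (minus) for PDIA6. Those of CALR, CRELD2 and XBP1 lie at chr19:12938359-12938427 (plus), chr22:49918529-49918597 (plus) and chr22:28800578-28800646 (minus). Of the genes that hold the motif only HSP90B1 reached 2-fold, in siRNA minus control. The others stayed between -0.70 and 0.38 in both arms on representative probe sets. DNAJB9 and DNAJC3, which were higher than control, held no match to these letters in their windows. A match is a description of the letters, and no binding was measured.

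**Figure D2:**
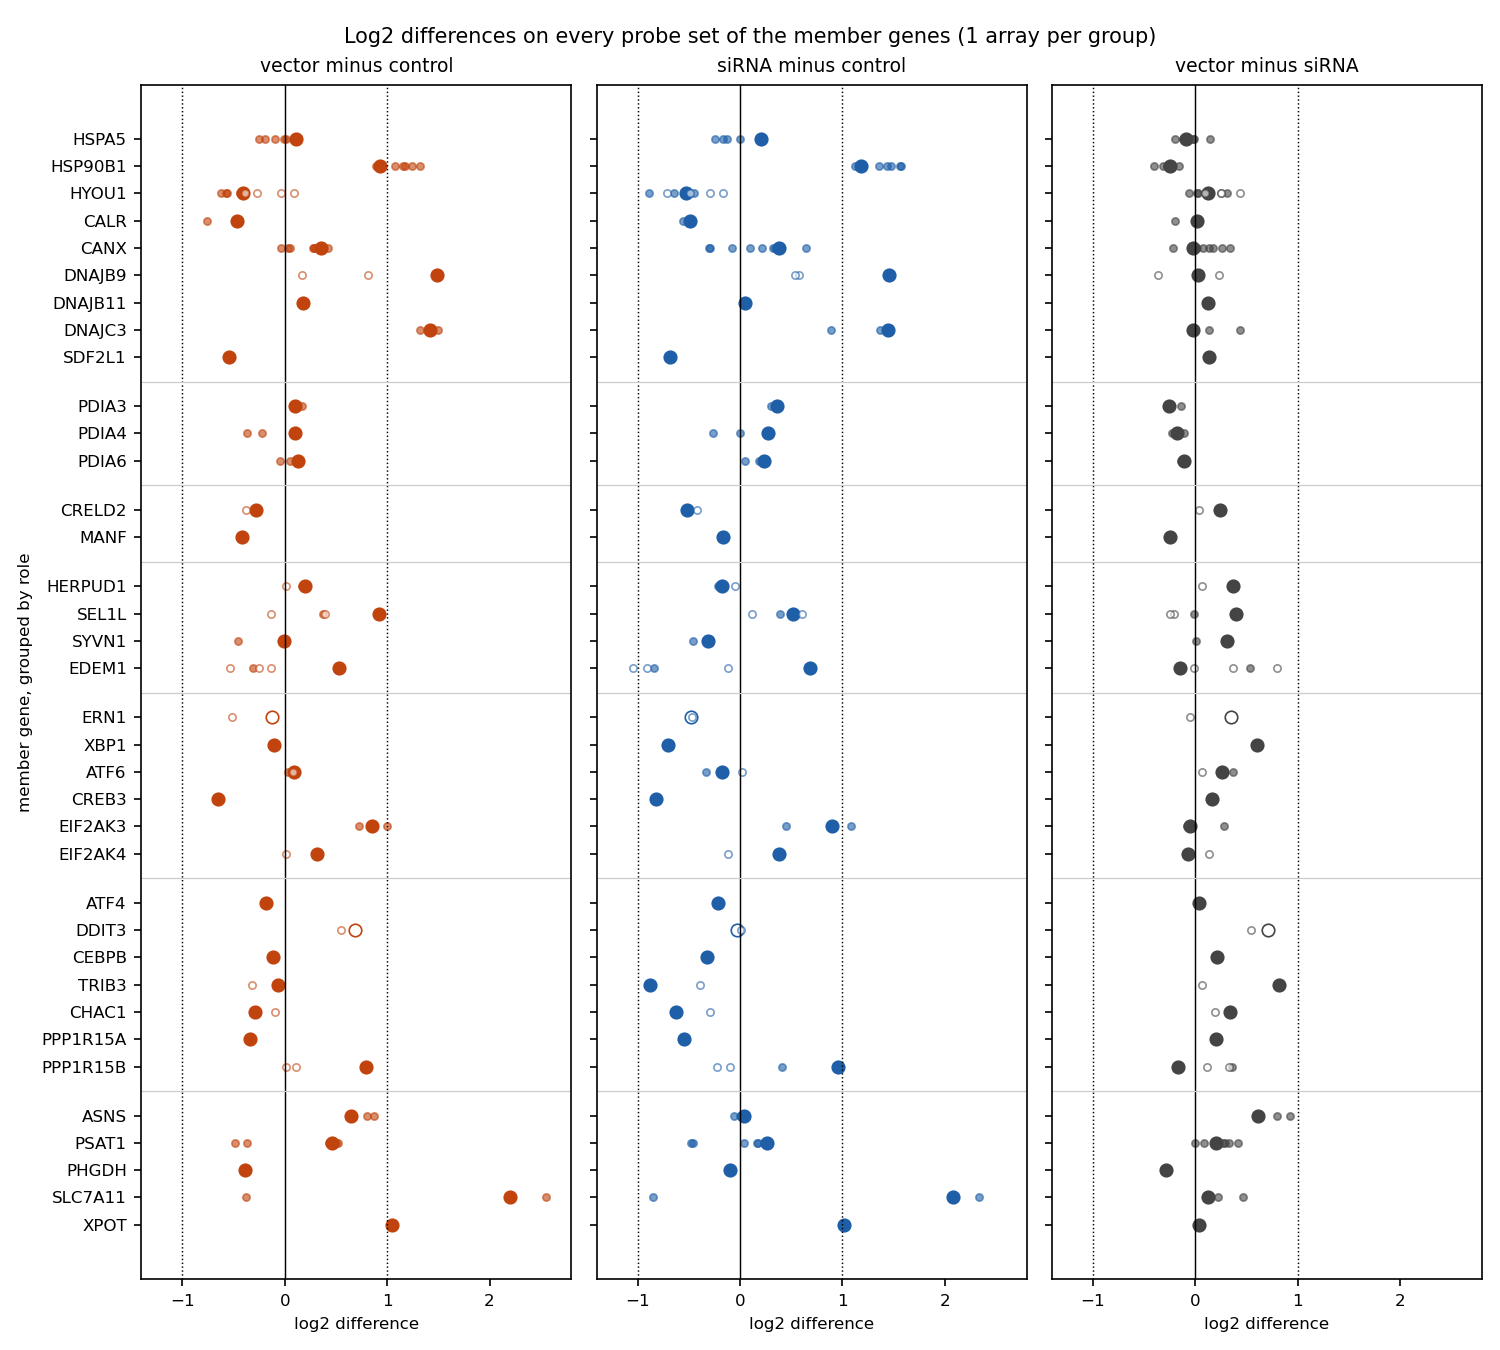
Log2 difference on each of the 109 probe sets of the 36 members, grouped by role from ER chaperones (top) to amino acid supply and tRNA export (bottom), for the 3 pairs of arrays. Large symbols are the probe sets that represent the gene, open symbols lie below the filter, and dotted lines mark 2-fold. The HSP90B1 and DNAJC3 probe sets lie together, whereas those of SLC7A11, EDEM1 and PSAT1 lie on both sides of 0 in the comparisons with control.

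ER-associated degradation genes, which return misfolded proteins to the cytosol, included 0 of 4 past 2-fold. Of all genes 15.2% were 2-fold higher in vector and 14.9% in siRNA minus control. SEL1L, the adaptor of the HRD1 ubiquitin ligase, had 8.16 in control cells, 9.07 with the vector and 8.68 with the siRNAs. Its difference of 0.92 in vector cells became 0.39 with the mean over probe sets. SYVN1, the HRD1 ligase itself, had 8.12, 8.12 and 7.81. HERPUD1, a scaffold of that complex, had 9.44, 9.63 and 9.26. All 3 of its probe sets above the filter agreed closely, from 0.17 to 0.21 in vector and from -0.21 to -0.17 in siRNA minus control. Differences of this size are like those of the median gene, so no direction against control is read for HERPUD1. After repeated quantile normalization it was at 0.05 in vector minus control.

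EDEM1, which helps deliver misfolded glycoproteins for degradation, gave opposite answers by probe set. The representative one had 8.33 in control cells, 8.85 with the vector and 9.01 with the siRNAs, whereas the other 4 were lower than control in both arms, down to -0.54 and -1.04. Averaged over probe sets EDEM1 came to -0.14 and -0.45, so no direction is given for it.

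Of the sensors and kinases, EIF2AK3 (PERK) was the one furthest from control. It had 7.92 in control cells, 8.77 with the vector and 8.82 with the siRNAs, and its 3 probe sets were higher than control by 0.73 to 1.00 in vector and 0.45 to 1.08 in siRNA cells. Control was thus the lowest array on every EIF2AK3 probe set, and the ranges of the arms overlapped. EIF2AK4 (GCN2) had 8.26, 8.57 and 8.64, and ATF6 had 8.89, 8.98 and 8.72, each within the spread between probe sets. ERN1 (IRE1), below the filter, had 4.90, 4.78 and 4.43, and its differences are not read. CREB3, a transcription factor anchored in the ER membrane, had 8.71, 8.06 and 7.89, and was the lowest member in vector minus control (-0.65) and lower still in siRNA minus control (-0.82). XBP1 had 8.24 in control and 8.13 in vector but 7.53 in siRNA cells, so siRNA cells were the lowest, at -0.70 against control, and vector minus siRNA was 0.60.

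Of the transcription factors of the integrated stress response, ATF4 and CEBPB were near control at the RNA level. ATF4 had 11.71 in control cells, 11.53 with the vector and 11.50 with the siRNAs, on 1 probe set, and its differences of -0.18 and -0.21 were close to those of the median gene. CEBPB, a bZIP partner of ATF4, had 9.05, 8.94 and 8.73. DDIT3 (CHOP), a pro-apoptotic target of ATF4, had 4.73, 5.41 and 4.70, and its other probe set 4.54, 5.09 and 4.55. Both DDIT3 probe sets were highest in vector cells, but their means lay below the filter, where differences are compressed, and DDIT3 enters no count.

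TRIB3, a pseudokinase induced by ATF4 and CHOP, had 8.97 in control and 8.90 in vector but 8.09 in siRNA cells. The siRNA array stood at -0.88 against control, where 3.94% of genes were lower, and vector minus siRNA was 0.82. CHAC1, which degrades glutathione, had 6.60, 6.32 and 5.98, so siRNA cells were lowest there too. The phosphatase subunits went apart. PPP1R15A, the inducible one, had 6.55, 6.21 and 6.00, and PPP1R15B, the constitutive one, had 8.16, 8.95 and 9.11. The probe sets of PPP1R15B disagreed in size, with 0.79 and 0.77 in vector minus control for those above the filter and 0.02 and 0.11 for those below it. In siRNA minus control they were at 0.96 and 0.41 above the filter and -0.10 and -0.22 below it. Averaged over probe sets PPP1R15B came to 0.42 and 0.26.

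**Figure D3:**
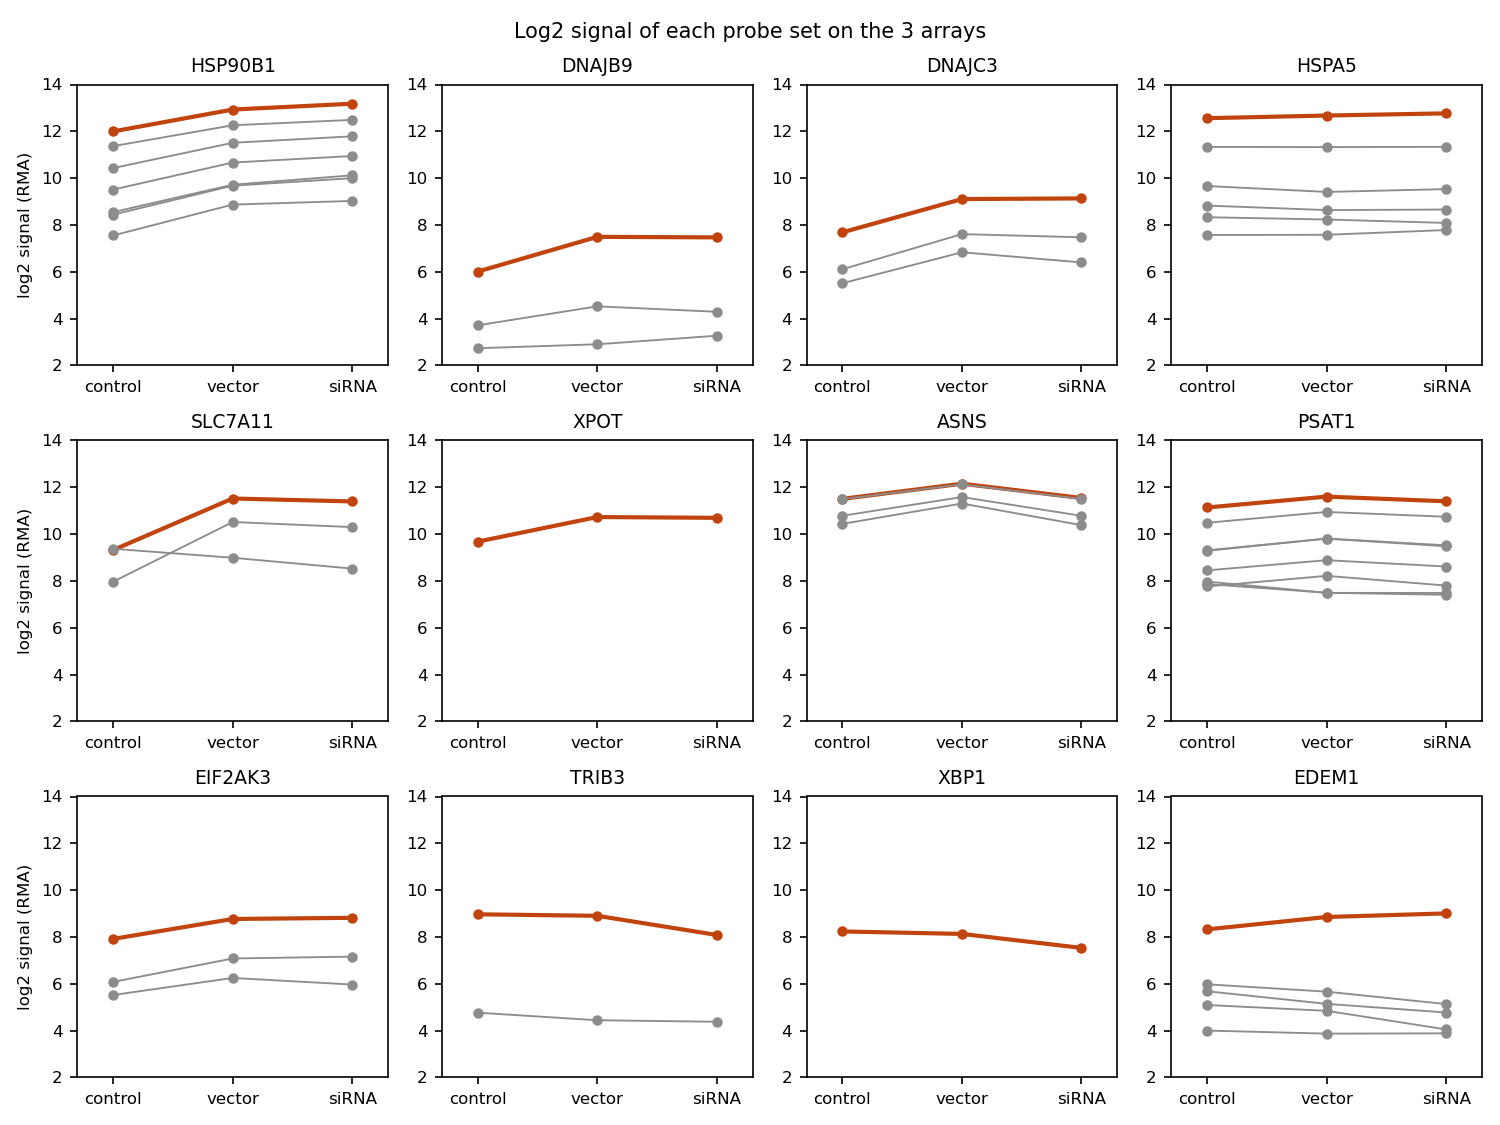
Log2 signal of each probe set of 12 members on the control, vector and siRNA arrays, with the representative probe set in orange and the others in grey. HSP90B1, DNAJC3, EIF2AK3 and XPOT are lowest in control, all 4 ASNS probe sets are highest in vector cells, TRIB3 and XBP1 are lowest in siRNA cells, and 1 SLC7A11 probe set runs opposite to the others.

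Among genes of amino acid supply, SLC7A11 differed most from control of all 36 members on representative probe sets. It encodes the transporter subunit that imports cystine in exchange for glutamate, and its representative probe set had 9.32 in control cells, 11.52 with the vector and 11.40 with the siRNAs, a 4.60-fold and 4.22-fold difference. Another probe set had 7.97, 10.52 and 10.30. The third had 9.37 in control cells, 8.99 with the vector and 8.53 with the siRNAs, which is -0.38 and -0.85 against control although it lay well above the filter. Averaged over probe sets SLC7A11 came to 1.46 and 1.19, and in siRNA cells HSP90B1 (1.39) and DNAJC3 (1.23) then differed more. XPOT, the export receptor for tRNA, had 9.68, 10.73 and 10.70 on its only probe set, and missed 2-fold after repeated quantile normalization (0.94 in vector and 0.93 in siRNA cells).

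ASNS, the asparagine synthetase and a standard ATF4 target, separated the arms. It had 11.51 in control cells, 12.15 with the vector and 11.54 with the siRNAs, so only vector cells differed, by 0.65 against control and 0.61 against siRNA cells. Its 4 probe sets ran from 0.63 to 0.87 in vector minus control and from -0.06 to 0.04 in siRNA minus control, with no overlap. PSAT1 and PHGDH, enzymes of serine synthesis, went apart. PSAT1 had 11.14, 11.60 and 11.40, highest in vector cells as ASNS was, with 6 of 8 probe sets above control there and the others at -0.37 and -0.48. Its 8 probe sets were above 0 in vector minus siRNA, by up to 0.42. PHGDH was lowest in vector cells and had 11.21, 10.82 and 11.11, and a further probe set shared with MZT2B had 11.49, 11.14 and 11.22.

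The amino acid response element, bound by ATF4 with a C/EBP partner, was searched by its core TGATGNAA on either strand in the same windows. It was present in 4 of 34 members, against 4.46% of genes with a window, so this short motif also occurs in many other genes. They include ASNS, which separated the arms, and CHAC1, which was lowest in siRNA cells. TRIB3 and XBP1, at 0.82 and 0.60 in vector minus siRNA, held no match to this core in their windows. Whether a match goes with a difference between the arms was not tested. The matches of all 4 genes are shown.
ASNS: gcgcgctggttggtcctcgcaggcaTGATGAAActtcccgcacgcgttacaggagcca
CHAC1: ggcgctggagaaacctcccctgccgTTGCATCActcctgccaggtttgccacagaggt
HERPUD1: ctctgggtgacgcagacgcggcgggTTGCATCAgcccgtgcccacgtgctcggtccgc
PPP1R15B: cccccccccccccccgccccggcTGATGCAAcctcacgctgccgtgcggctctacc

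Capitals mark the core or its reverse complement. The stretches lie at chr7:97872444-97872501 (minus strand) for ASNS, chr15:40953237-40953294 (plus) for CHAC1, chr16:56931941-56931998 (plus) for HERPUD1 and chr1:204412012-204412067 (minus) for PPP1R15B. In vector minus siRNA these genes were at 0.61, 0.34, 0.37 and -0.17 in the same order, but PPP1R15B turned to 0.16 when its probe sets were averaged, so no direction is read for it. The core of another unfolded protein response element, TGACGTGG, was found in 1 member, HYOU1, against 0.927% of genes. No member held matches of 2 of these motifs.

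Vector minus siRNA leaves out the control array, and there the roles lay in different places. ASNS, TRIB3 and XBP1 were at least 1.5-fold higher in vector cells, 3 of 34 members against 4.74% of all genes, and 0 were 1.5-fold lower, against 4.95%. TRIB3 exceeded 97.5%, ASNS 95.6% and XBP1 95.4% of all genes. Averaged with its other probe set, which lay below the filter, TRIB3 was at 0.44, short of 1.5-fold. XBP1 has 1 probe set and passed 1.5-fold narrowly, at 0.60 against 0.58. Of the 6 integrated stress response factors and phosphatase subunits above the filter 5 were above 0, with a median of 0.21. The 4 ER-associated degradation genes had a median of 0.34, with HERPUD1 at 0.37, SEL1L at 0.40, SYVN1 at 0.31 and EDEM1 at -0.15. Averaged over probe sets SEL1L came to -0.02, SYVN1 to 0.16 and EDEM1 to 0.31, so the direction of SEL1L and EDEM1 turned with the choice of probe set. The 9 chaperones had a median of 0.02 and the 3 disulfide isomerases one of -0.17, beside 0.01 for all genes. These medians rest on few genes and 1 array per arm. The spread between probe sets of members was 0.16 in this comparison, and no test of the difference between roles was made.

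**Figure D4:**
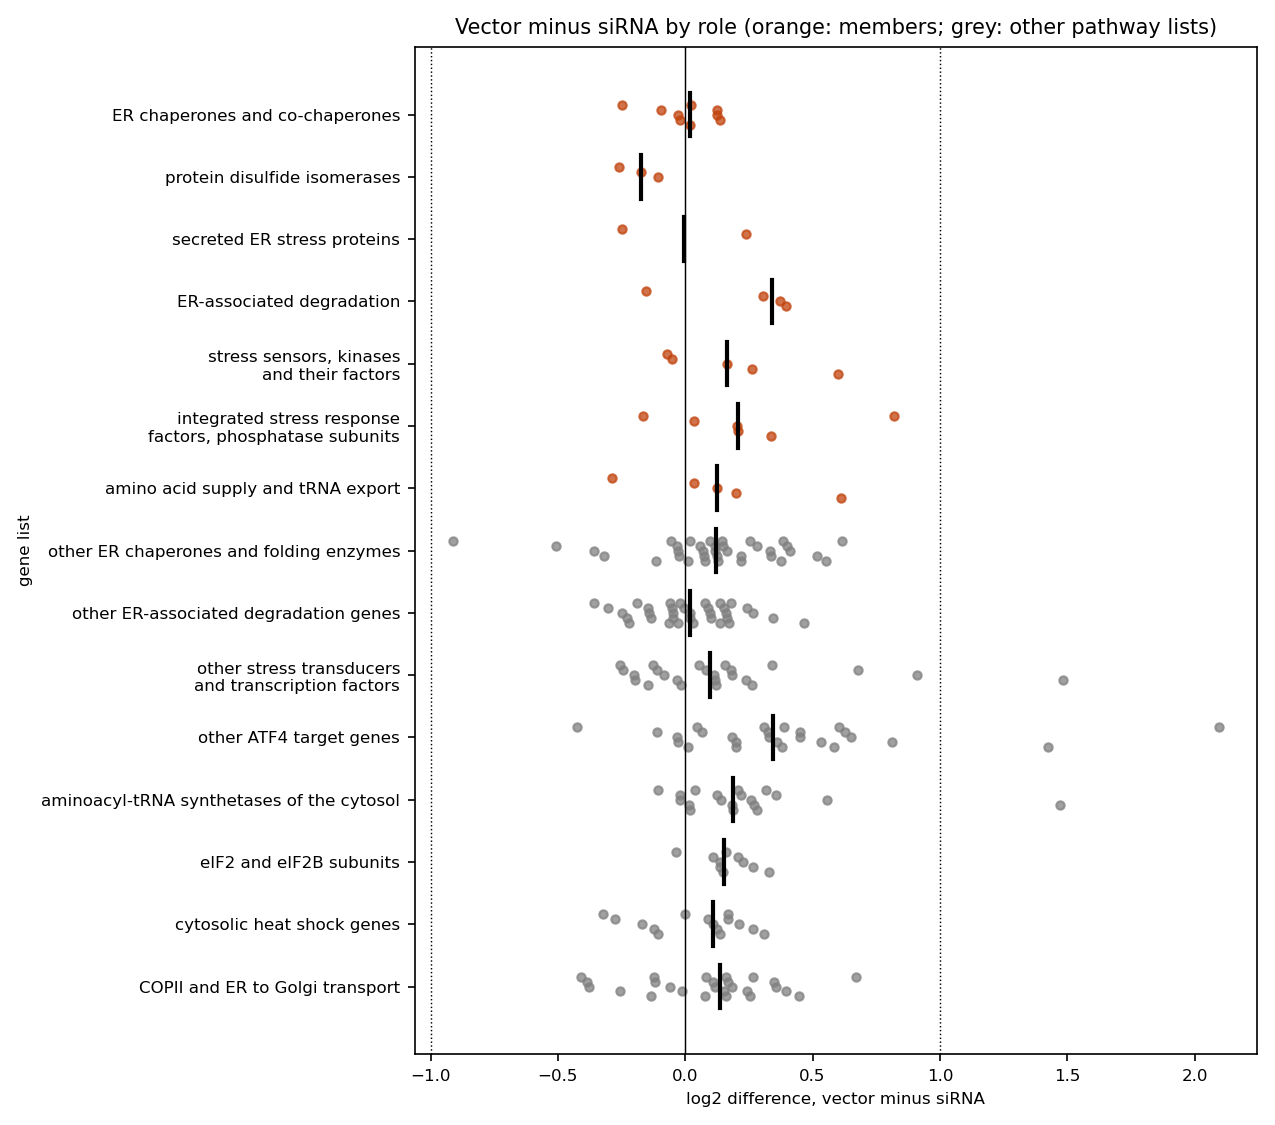
Log2 difference in vector minus siRNA for each gene above the filter, by role, with members in orange, the other pathway lists in grey and the median of each list as a black bar. Dotted lines mark 2-fold. ASNS, TRIB3 and XBP1 are the rightmost members in their rows, and the rows of other ATF4 target genes and of ER-associated degradation members have a median of 0.34.

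Other genes of the pathway were taken from lists outside the 36. Among 26 other ATF4 target genes that passed the filter, 4 were 2-fold higher and 1 was 2-fold lower with the vector than in control. Of all genes 15.2% were higher and 2.05% lower there. In siRNA minus control 2 of the 26 were higher and 2 lower, beside 14.9% and 1.85% of all genes. In vector minus siRNA 2 were higher and 0 lower, with 22 of 26 above 0, beside 1.73%, 1.85% and 52.0% of all genes. In some other lists most genes were above 0 too, 27 of 36 other chaperones, 16 of 19 aminoacyl-tRNA synthetases and 9 of 10 eIF2 and eIF2B genes. Their medians of 0.12, 0.19 and 0.15 lay below the spread between probe sets of 0.21. These counts of signs were made under 1 scaling only. The remaining lists lay closer to the share of all genes. Above 0 were 18 of 35 other ER-associated degradation genes and 14 of 24 other stress transducers and transcription factors. So were 9 of 15 cytosolic heat shock genes and 17 of 26 genes of ER to Golgi transport. The stress-induced cofactor gene NUPR1 had 6.95 in control cells, 8.17 with the vector and 6.75 with the siRNAs, and the cytokine gene GDF15 had 6.15, 7.47 and 5.37. Both were highest in vector cells, by 1.43 and 2.09 against siRNA cells, each on 1 probe set above the filter. SLC38A2, an amino acid transporter gene, was higher than control by 1.35 and 1.31 but by as little as 0.43 and 0.12 on another probe set, and KLHL24 by 1.89 and 1.24. NDRG1 was lower, at -1.54 and -1.93, and SLC7A5, the leucine transporter gene, reached 2-fold only in siRNA cells (-0.65 in vector and -1.18 in siRNA cells).

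Of 19 aminoacyl-tRNA synthetase genes, which charge tRNAs and include several ATF4 targets, 2 were 2-fold higher than control in each arm, NARS1 (1.26 and 1.12) and RARS1 (1.10 and 1.08), beside 15.2% and 14.9% of all genes. WARS1, whose product is the tryptophanyl-tRNA synthetase and which is also induced by interferon, had 8.62 in control cells, 9.26 with the vector and 7.79 with the siRNAs. Its 3 probe sets above the filter were higher in vector than in siRNA cells by 1.42 to 1.54. Of 10 eIF2, eIF2B and related initiation factor genes 2 were 2-fold higher in each arm, EIF2S2 (1.57 and 1.36) and EIF2A (2.15 and 1.92), beside 15.2% and 14.9% of all genes. The other EIF2S2 probe set above the filter was at 0.38 and 0.40.

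Among 24 other stress transducers and transcription factors, 6 were 2-fold higher in vector and 4 in siRNA minus control, and 0 were lower in either, where 15.2% and 14.9% of all genes were higher. EIF2AK2 (PKR), the eIF2 kinase that senses double-stranded RNA and is itself interferon-induced, was the single one that separated the arms by 2-fold. It had 8.96 in control cells, 10.89 with the vector and 9.40 with the siRNAs, and both of its probe sets were higher in vector than in siRNA cells, by 1.14 and 1.48. PMAIP1, a pro-apoptotic gene, was at 1.64 and 0.96, NFYB, a subunit of the factor that binds ERSE, at 1.19 and 0.93, and NFE2L2 at 0.99 and 1.12. CEBPG (1.18 and 1.13), MAP3K5 (1.28 and 1.43) and MBTPS2 (1.30 and 1.11), the last a protease that activates ATF6, were higher in both arms, but the other probe set of CEBPG was at 0.23 and -0.20 and that of MBTPS2 at 0.17 and 0.12.

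Of 36 other ER chaperones and folding enzymes 6 were 2-fold higher in vector and 7 in siRNA minus control, with 0 lower, close to the 15.2% and 14.9% of all genes. HSPA13, an HSP70-like protein of the ER, differed most, at 5.48 in control cells, 9.01 with the vector and 9.06 with the siRNAs, though its 4 probe sets ranged from 0.74 to 3.53 in vector minus control. DNAJB14 was at 2.50 and 1.88, the disulfide reductase gene DNAJC10 at 1.86 and 1.73, TMX3 at 1.68 and 1.53, TMX1 at 1.34 and 1.27 and FKBP14 at 1.05 and 1.41. TMX4 passed 2-fold in siRNA cells alone (0.63 and 1.54), with its other probe set above the filter at -0.24 and -0.38.

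Of 35 other ER-associated degradation and translocation genes 8 were higher and 1 lower by 2-fold in vector minus control, and 8 and 2 in siRNA minus control. Of all genes 15.2% were higher and 2.05% lower in the first, and 14.9% and 1.85% in the second. The mannosidase-like gene EDEM3 was at 2.47 and 2.40, JKAMP at 2.13 and 2.11, the translocation gene SEC62 at 2.04 and 2.04, TRAM1 at 1.84 and 1.59 (down to 0.46 and 0.19 on another probe set), FAM8A1 at 1.70 and 1.75, UBXN4 at 1.54 and 1.76, SEC63 at 1.01 and 1.26, and ERLEC1, past 2-fold in both, at 1.27 in vector cells. DNAJB2 was lower (-1.17 in siRNA cells), as was AUP1 in siRNA cells (-0.76 and -1.23). FAM8A1 turned negative on its other probe set (-0.29 and -0.91). None of these 35 genes was 2-fold apart between the arms, against 1.73% of all genes higher and 1.85% lower in vector cells.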

How the data were processed

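The deposited values are log2 signals per probe set, and the submitters' processing notes name RMA. The scale was read from the value range, and RMA settings are not given in the sources used. RMA compresses differences near background. Of 49293 probe sets, 44988 had 1 symbol, 1832 several and 2473 were not listed. Each gene took the values of its brightest probe set on average, and was kept at or above the median probe set mean. Log2 differences were taken per pair of arrays, without a test. The members and lists were chosen with earlier results of these data known. All members are named, with list genes past 2-fold. Repeated quantile normalization, cyclic loess (span 0.4, 3 cycles), other filters, thresholds and probe set rules were alternatives. On simulated arrays of 10917 genes, 100% of 200 genes changed by 2 on the log2 scale were recovered in vector minus control. The planted change was larger than the threshold and the added noise was small, so recovery was built in. It checks the code and not the reliability of the differences. Promoter windows were RefSeq's (GRCh38.p14). PDIA3 and SLC7A11 had no entry. Python 3.11.15, numpy 2.4.6, pandas 2.3.3 and statsmodels 0.14.6 were used.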

Additional observations from a re-analysis of the deposited data

How the results depend on the processing

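The counts of members past the threshold moved by over 1.5 times under 3 settings. At 1.5-fold, 9 were higher and 1 lower in vector minus control, 8 and 5 in siRNA minus control, and 3 higher in vector minus siRNA. At 3-fold 1 was higher in each comparison with control. Centring on the median gene gave 7 of 34 higher in vector minus control and 7 in siRNA minus control. These shares were close to the 18.1% and 17.9% of all genes under that setting. Other filters, normalizations and probe set rules gave 3 to 5 higher in vector minus control, 4 to 6 in siRNA minus control, and 0 past 2-fold between the arms. DNAJB9 left the counts where the mean over probe sets or the filter at the 75th percentile put it below the filter, and without _x_at and _s_at probe sets, since it has no others. No member past 2-fold changed direction. Precision is limited by 1 array per group. No paired analysis was possible because each group has 1 array.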

Other observations

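Genes of neighbouring systems were measured alongside. Of 15 cytosolic heat shock genes above the filter, 1 was 2-fold higher in vector and 2 in siRNA minus control, beside 15.2% and 14.9% of all genes. HSP90AA1, the cytosolic relative of HSP90B1, had a log2 signal of 10.12 in control cells, 12.44 with the vector and 12.28 with the siRNAs, and both of its probe sets were higher than control by more than 2. DNAJA1 was at 0.92 and 1.04. In vector minus siRNA no heat shock gene was 2-fold apart, and HSPB1 (-0.32) and STIP1 (0.31) differed most. Of 26 genes of transport between the ER and the Golgi, 2 were 2-fold higher in vector and 3 in siRNA minus control, with 0 lower. Of all genes 15.2% and 14.9% were higher and 2.05% and 1.85% lower. The cargo receptor gene TMED7 was at 2.53 and 2.08, the coat subunit gene COPB1 at 1.76 and 1.60, and SEC23A at 0.62 and 1.00. SEC23A was as low as 0.04 and 0.02 on another probe set above the filter. The 4 probe sets of TMED7 ranged from 0.43 to 2.53 in vector minus control. On representative probe sets LMAN1, a receptor for glycoproteins leaving the ER, differed most between the arms (0.67), followed by TMED7 (0.45). The 5 LMAN1 probe sets above the filter ran from 0.15 to 0.67 there.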
